A study of Rattus norvegicus with 4 samples.

Results

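Skeletal muscle RNA of 1 exercised rat of the hyperactive mutant strain SPORTS was compared with that of sedentary wild-type (WT) rats on 1-colour Agilent microarrays. The comparison uses 3 of the series' 4 arrays, taken by their sample labels: 1 array of the exercised SPORTS rat and 2 WT arrays. All rats were males aged 15 weeks. SPORTS rats carry their mutation on a Wistar background, and the WT rats were also Wistar. The remaining array, from a sedentary SPORTS rat, entered the statistical model and is quoted only where its value stands beside that of the exercised rat. Genotype and exercise differ together between the groups compared, so their effects cannot be told apart, and neither can they be told apart from the muscle or the part of it that was sampled, since the labels name no muscle. The labels also do not say what the exercise was or how long before sampling it ended. Both WT titles carry the same first number, and nothing says that the WT samples came from separate animals, so the p-values may measure technical spread alone. In bulk muscle RNA, fewer cells of a type and less RNA per cell cannot be told apart.

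Mammalian limb muscle is built from slow, oxidative fibres and several kinds of fast fibre, each with its own set of myosin, troponin and calcium-handling proteins. Slow fibres burn fatty acids in their mitochondria and serve posture and endurance, whereas the fastest fibres (type IIb) live on glycogen and glycolysis and contract in short bursts. Muscle RNA also follows the daily clock, recent contraction, feeding and stress hormones, and every piece of whole muscle brings connective tissue, vessels, fat and nerve with it.

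Levels are given as log2 processed signal relative to the 75th percentile of each array, so that 0 is the level of a probe at that percentile and 1 unit is a 2-fold step. Levels of different genes come from different probes and were not set against each other. Marker lists were summed, and such a sum leans on its brightest probes. On the 4 arrays between 46% and 50.31% of probes were well above background (the scanner software's flag), with the exercised array lowest, and the median processed signal was 60.9 on the exercised array against 89.06 to 90.4 on the others. All 8 measured markers of skeletal muscle fibres, among them actin Acta1, creatine kinase Ckm and myoglobin Mb, were well above background on every array. Their levels summed to 1836 and 1840 on the WT arrays and 2242 on the exercised array, on a linear scale where 1 is the 75th percentile.

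A gene was said to have risen or fallen when its adjusted p was below 0.05 (limma moderated test, Benjamini-Hochberg over all genes tested) and the exercised array lay at least 2-fold to the same side of both WT arrays. The model takes its only spread from the WT pair, with 1 residual degree of freedom, and assumes that a lone SPORTS array varies like that pair. Differences are exercised minus the WT mean in log2 units, and the value after ± is the model's SE (WT n = 2, exercised n = 1). Of 13326 genes tested, 1035 rose (7.77%) and 1402 fell (10.5%), 18.3% in all. Each list count below stands against these shares. The adjusted p alone was met by 7097 genes (53.3%). Without the test, 1050 genes (7.88%) exceeded both WT arrays by 2-fold or more and 1431 (10.7%) were that far below both, whereas 151 genes (1.13%) were that far apart between the WT arrays. The median absolute difference was 0.41 between exercised and WT and 0.074 between the WT arrays. The share of called genes that rose was 42.5%, and it was 58.5% when the arrays were scaled by their medians, which moves the median difference of all genes from 0.0030 to 0.23. Of the genes that fell, 613 were not well above background on the exercised array and so have only a lower bound for their fold, which reached 2-fold for 296 of them.

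**Figure D1:**
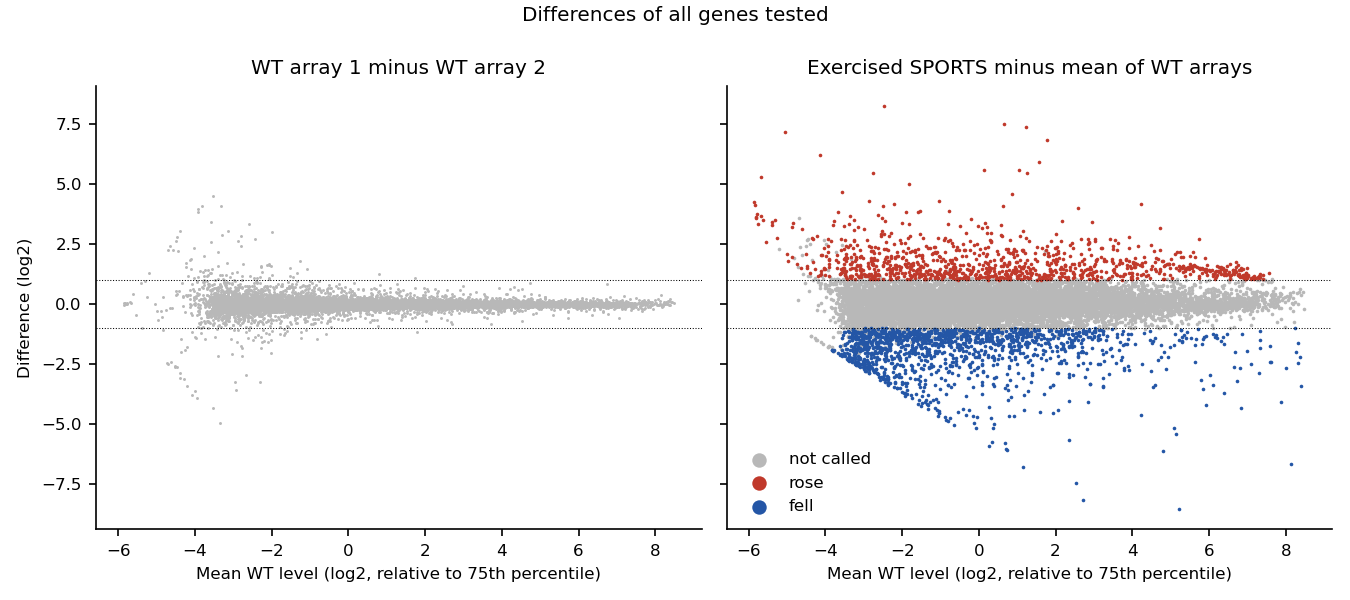
Each point is 1 of the genes tested, placed by its mean log2 level on the WT arrays (horizontal axis) and by a log2 difference (vertical axis): left, between the WT arrays, and right, between the exercised SPORTS array and the WT mean. Dotted lines mark 2-fold; the cloud is narrow between the WT arrays, with a median absolute difference of 0.074, and wide on the right, with 0.41, where 1035 genes rose (red) and 1402 fell (blue).

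The largest increases included several genes of the fast, glycolytic fibre. Mss51, which encodes a muscle protein associated with mitochondria, had levels of -2.82 and -2.10 on the WT arrays and 5.79 on the exercised array, a difference of 8.26 ± 0.38 with an adjusted p of 0.0048 (limma). Pvalb, the calcium buffer parvalbumin of the fastest fibres, stood at 0.33 and 0.9995 on the WT arrays and 8.19 on the exercised array (difference 7.52 ± 0.35). Myh4, the myosin heavy chain of type IIb fibres, was measured at 1.03 and 1.41 on the WT arrays and 8.63 on the exercised array (difference 7.40 ± 0.21). For each of these genes the exercised array was far outside the pair of WT values. Actn3, the actinin of fast fibres, followed with a difference of 6.82 ± 0.61, although its WT values of 1.20 and 2.38 were further apart. Further increases were found in Atp1b2, a beta subunit of the sodium pump (5.60), Cd24, a surface glycoprotein (5.60), Ltb, the cytokine lymphotoxin beta (5.46), Fbp2, the fructose bisphosphatase of muscle (5.45), and Ankrd1, a stretch-responsive protein of the sarcomere (4.58). Prima1, which anchors acetylcholinesterase in membranes, and Oit3 were not well above background on either WT array and were at least 25.4-fold and at least 9.46-fold higher on the exercised array, but a second probe for Prima1, well above background on all 4 arrays, differed by only 0.71. Pfkl, the liver form of phosphofructokinase, rose by 4.31 on its brightest probe, and its second probe gave -0.21, so its probes disagree.

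The largest decreases mixed matrix genes with genes of slow and immature fibres. Sln, sarcolipin, the small inhibitor of the calcium pump, fell from 5.29 and 4.98 on the WT arrays to -0.30 on the exercised array, a difference of -5.43 ± 0.17. Slc4a3, an anion exchanger, fell from 4.74 and 4.85 to -1.34. Myh3, the embryonic myosin heavy chain, fell from 5.08 and 5.08 to -0.090, and its second probe gave -5.29. All 3 were bright on both WT arrays and remained well above background on the exercised array. The others were not well above background there. Chad and Comp, cartilage and tendon matrix proteins, were at least 62.9-fold and at least 50.3-fold lower, Tnmd, tenomodulin of tendon, at least 24.1-fold, and Col11a2, a fibrillar collagen chain, at least 17.9-fold. Bounds for the potassium channels Kcnk2 and Kcnj13 were at least 13.7-fold and at least 10.3-fold, and those for Epn3 and Rd3l were at least 17.6-fold and at least 17.3-fold. A second probe of Epn3 was dim and gave -0.50. Further probes of Kcnk2, also dim on the exercised array, gave -0.46 and -2.52.

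Vegfb and Cd300lg were not well above background on either SPORTS array. Vegfb, a growth factor of the vascular endothelial family, had levels of 2.69 and 2.73 on the WT arrays and was at least 70.8-fold lower on the exercised array (adjusted p = 0.0042, limma). Cd300lg, a receptor of capillary endothelium, had levels of 0.22 and 0.33 and was at least 13.1-fold lower. No fold is given between the SPORTS arrays for these genes.

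Close to the 2-fold limit, Ethe1 (1.02), Acer2 (1.08) and Ubxn2a (1.05) lay just inside it, and Ppp2ca (-1), Irx5 (1.05) and Gapdh (1.005) just outside, each of the last 3 lying less than 2-fold from at least 1 of the WT arrays.

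Among the fast fibre genes, 9 of 15 rose, against the 7.77% of all genes that rose, and the median difference was 1.22 against 0.0030 for all genes. Myh1, the myosin heavy chain of type IIx fibres, had levels of 5.17 and 4.29 on the WT arrays and 7.92 on the exercised array (difference 3.19 ± 0.46). Myoz1, the calsarcin of fast fibres, rose by 2.71 and Mylk2, the skeletal myosin light chain kinase, by 2.27. Smaller increases were found in Tpm1 (1.27), Tnnt3 (1.22) and Casq1 (1.22), which encode fast tropomyosin, fast troponin T and the fast calcium store protein. The fast troponins I and C and the fast calcium pump were already bright on the WT arrays and did not pass the 2-fold rule, with differences of 0.51 for Tnni2, 0.61 for Tnnc2 and 0.37 for Atp2a1. Myh2, the myosin of type IIa fibres, the least glycolytic of the fast types, was the 1 member below WT, at -0.43 (levels 6.24 and 6.34 on the WT arrays and 5.86 on the exercised array) and -1.67 on its second probe.

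The slow set moved the other way. Of 16 slow fibre genes, 12 fell and 1 rose, with a median of -1.91, against 10.5% of all genes that fell. Myl2, the slow regulatory light chain, had levels of 7.91 and 7.83 on the WT arrays and 3.80 on the exercised array (difference -4.07 ± 0.074). Tnni1, slow troponin I, went from 8.45 and 8.38 to 4.98 (difference -3.43 ± 0.071), and Myh7, the slow myosin heavy chain, from 8.36 and 8.40 to 6.16 (difference -2.22 ± 0.066). In each case the WT values were nearly equal, and the exercised array was clearly below them yet still bright. Myh7b, a second slow myosin, fell by 3.44, and Casq2 by 2.78, Tnnc1 by 2.47, Atp2a2 by 2.42 and Myl3 by 1.99 (slow calsequestrin, troponin C, calcium pump and light chain). The member that rose was Mybph, a myosin-binding protein (2.39). Phospholamban, Pln, and the slow myosin-binding protein Mybpc1 differed by -0.11 and -0.61 and were not called. The probe for Myh6 fell by 1.60, but this myosin is nearly identical to Myh7 in sequence, and the arrays may not separate them.

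Of 10 genes of developing or regenerating fibres, 7 fell (median -1.94). Beside Myh3, these were Myl4, the embryonic light chain (-2.68), Actc1, cardiac actin (-2.21), Tnnt2, cardiac troponin T (-1.67), Myog, the differentiation factor myogenin (-1.26), Ncam1, a cell adhesion molecule (at least 2.82-fold lower), and Chrng, the fetal acetylcholine receptor subunit (at least 5.36-fold lower). Myh8, the neonatal myosin, was not called at 0.50, nor were H19 (0.51) and Igf2 (-0.70).

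**Figure D2:**
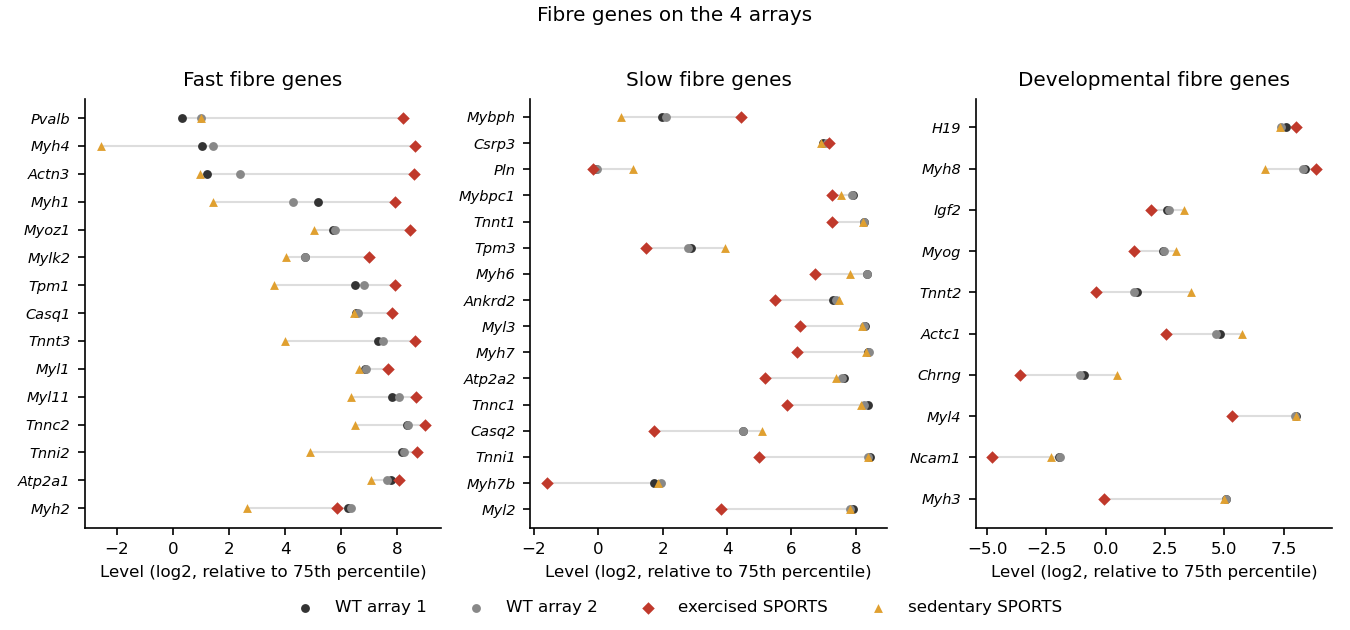
Log2 levels (horizontal axis, relative to the 75th percentile of each array) of fast, slow and developmental fibre genes on the 4 arrays; grey lines span the lowest and highest value of a gene. The red diamonds of the exercised array lie above the WT points for 14 of 15 fast genes and below them for most slow genes, with a difference of -4.07 for Myl2.

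The skeletal myosin heavy chain genes lie side by side on rat chromosome 10 and yet went in different directions on the exercised array: Myh3 fell, Myh2 was not called, and Myh1 and Myh4 rose. The bases just before the transcription starts of these genes are shown because the neighbours did not go the same way. The sequences are from RefSeq (GRCr8, forward strand, 5′ to 3′) and end at the last base before the start. Capitals mark the TATA box, searched as TATAAA on both strands, which 12.9% of 33469 rat promoters hold within 250 bases before the start.
Myh3, chr10:52269125-52269184: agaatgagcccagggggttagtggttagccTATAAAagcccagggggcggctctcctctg
Myh2, chr10:52355679-52355738: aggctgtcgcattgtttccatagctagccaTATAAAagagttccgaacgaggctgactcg
Myh1, chr10:52384852-52384911: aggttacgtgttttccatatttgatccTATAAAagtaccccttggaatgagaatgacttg
Myh4, chr10:52422088-52422147: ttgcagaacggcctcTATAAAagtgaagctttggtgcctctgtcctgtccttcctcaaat
Each of the 4 windows holds the motif, whose first base is at -30 in Myh3 and Myh2, -33 in Myh1 and -45 in Myh4, counting only the match nearest the start.

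For Myh4 and Myh1 the sedentary SPORTS array lay below WT, opposite to the exercised array. For Myh2 both SPORTS arrays lay below the WT mean, with differences of -0.43 for the exercised and -3.64 for the sedentary array. Its exercised level of 5.86 was 3.21 above the 2.65 on the sedentary array. Myh4 was at -2.56 there, 11.19 below the exercised array (adjusted p = 0.0062, limma), and Myh1 at 1.43 (exercised minus sedentary 6.49, adjusted p = 0.010, limma). For Myl2 and Sln the exercised array was lower than the sedentary one, by differences of -3.998 (adjusted p = 0.0062, limma) and -6.20 (adjusted p = 0.0062, limma). The median over the fast list was -1.57 in sedentary SPORTS minus WT, and over the slow list -0.067; both comparisons share the WT arrays. Between sedentary SPORTS and WT the adjusted p alone was met by 6.27% of genes, and between the SPORTS arrays by 50.3% (limma). These shares are not on the same scale, because the Benjamini-Hochberg adjustment depends on how many genes differ in a comparison. The SE of Myh1 was 0.46 in both comparisons with WT, yet it met the threshold at 3.19 (exercised) and not at -3.30 (sedentary). The smaller share therefore does not say how near sedentary SPORTS was to WT.

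Of 13 regulators of fibre type 2 rose and none fell, a share below the 18.3% of all genes called. Maf, a large transcription factor known for driving type IIb myosin, had levels of -2.54 and -2.44 on the WT arrays and 1.59 on the exercised array (difference 4.08 ± 0.083). Sox6, a repressor of slow fibre genes, rose by 1.66. Eya2, a coactivator of the fast programme, lay at 0.90, and Ppargc1a, the coactivator PGC-1 alpha of oxidative metabolism, at 0.089; neither was called.

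Calcium-handling genes changed in both directions. Of 24 genes, 5 rose (Pvalb, Casq1, Camk2d at 2.43, Calm3 at 1.45 and Jph2 at 1.33) and 3 fell (Sln, Casq2 and Atp2a2). Camk2d is a calmodulin-dependent kinase, Calm3 encodes calmodulin and Jph2 holds the junction between surface membrane and calcium store. The slow members of the pump and store pairs (Atp2a2 and Casq2) fell, the fast store gene Casq1 rose, and the fast pump gene Atp2a1 lay at 0.37. The voltage sensor subunit gene Cacna1s lay at 0.97 and was not called.

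Glycolytic genes rose at several steps. Of 19 genes of glycolysis and of reactions that reverse or leave it, such as Fbp2 and Gpd1, 9 rose. In all, 15 lay above the WT mean, with a median of 1.02. Fbp2 had levels of 1.07 and 1.42 on the WT arrays and 6.69 on the exercised array (difference 5.45 ± 0.19, adjusted p = 0.0044, limma). Gpd1, the cytosolic glycerol phosphate dehydrogenase, had levels of 2.60 and 2.55 on the WT arrays and 6.56 on the exercised array (difference 3.99 ± 0.067). Pkm, pyruvate kinase, rose by 2.40, and by 2.78 on its second probe. The others were, in order of the pathway, the isomerase Gpi (1.93), the muscle phosphofructokinase Pfkm (1.97), Pfkl, aldolase Aldoa (1.61), Pgk1 (1.24) and the muscle phosphoglycerate mutase Pgam2 (1.51). The call of Pfkl rests on its brightest probe alone. Not called were Hk1 at -0.26, Aldoc at -0.92, Pgam1 at -0.36 and Eno1 at -0.36, isoforms known mainly from other tissues. The muscle hexokinase Hk2 (0.84) and the muscle enolase Eno3 (0.43) were not called either. The same held for Tpi1 (1.02), Gapdh (1.005), Pfkfb1 (0.94) and Gpd2 (0.65).

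Of 16 genes of glycogen synthesis, breakdown and targeting 7 rose and 1 fell (median 1.04). Phka1, a regulatory subunit of phosphorylase kinase, had levels of -3.02 and -2.97 on the WT arrays and 0.12 on the exercised array (difference 3.12 ± 0.067). Pgm1, phosphoglucomutase, rose by 2.49, Phkg1, the catalytic subunit of the kinase in muscle, by 2.27, and Pygm, muscle phosphorylase, by 2.19. Ppp1r3c, a glycogen-targeting phosphatase subunit, rose by 2.56, and its exercised and sedentary values did not differ past the threshold (difference 1.51, adjusted p = 0.053, limma). The branching enzyme Gbe1 was the 1 member to fall (-1.97), and glycogen synthase Gys1 lay at -0.030. Among the others not called were the phosphorylase kinase subunits Phkb (1.05) and Phkg2 (-0.81).

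Lactate and pyruvate genes split by isoform, with 3 of 20 risen and 4 fallen. Slc16a3, the lactate exporter MCT4 of glycolytic fibres, had levels of 2.98 and 2.94 on the WT arrays and 6.36 on the exercised array (difference 3.40 ± 0.066). Ldhb, the lactate dehydrogenase subunit of oxidative tissue, had levels of 7.33 and 7.29 on the WT arrays and 4.42 on the exercised array (difference -2.89 ± 0.066), while Ldha, the glycolytic subunit, rose by 1.73. The uptake transporter Slc16a1 (MCT1) fell by 1.34, and Slc16a7 was at least 1.11-fold lower. Pdk4, the pyruvate dehydrogenase kinase raised by fasting, rose by 1.32, and Pdk1 fell by 1.68. The list's median of -0.21 turns to 0.011 when arrays are scaled by their medians.

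Many genes of fatty acid use fell. Of 30 beta-oxidation genes 13 fell and 1 rose, and 28 lay below the WT mean (median -0.89). Most single changes were close to 2-fold: Cpt2 and Slc25a20 of the carnitine shuttle fell by 1.41 and 1.23, Hadh by 1.27, Eci1 by 1.26 and Hadha by 1.12 (enzymes of the oxidation spiral). The ketone enzyme Bdh1 fell by 1.84, and the thioesterase Acot1 was at least 1.54-fold lower. The member that rose was Ucp3, the uncoupling protein of muscle, with levels of 2.36 and 2.56 on the WT arrays and 4.78 on the exercised array (difference 2.32 ± 0.12). Of 18 genes for uptake and binding, 6 fell and 1 rose (median -0.34). Lpl, lipoprotein lipase, had levels of 3.44 and 3.36 on the WT arrays and 0.49 on the exercised array (difference -2.91 ± 0.074). Fabp3, the muscle fatty acid binding protein, fell by 2.50, Cd36, the fatty acid transporter, by 2.43 (-2.64 on its second probe) and Slc27a1 by 1.80, whereas Acsl3, an acyl-CoA synthetase, rose by 1.83.

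The mitochondrial core was near WT. Of 65 genes of the respiratory chain and ATP synthase, 0 rose and 0 fell by the rule used here, and their differences ran from -0.75 to 0.78 (median 0.0073, and -0.29 under quantile normalization). The adjusted p alone was met by 11 of them and an unadjusted p below 0.05 by 16 (limma). In the tricarboxylic acid cycle 1 of 21 rose, Idh3a, a subunit of isocitrate dehydrogenase (1.42), and citrate synthase Cs lay at -0.073. Among 22 regulators of mitochondrial biogenesis 1 fell, the deacetylase Sirt3 (-1.26), and the mitochondrial transcription factor Tfam lay at -0.081. Ribosomal protein genes (33 tested) and proteasome genes (33 tested) also had 0 members called, with medians of -0.036 and 0.31, while 3 and 18 of them met the adjusted p alone and 8 and 21 an unadjusted p below 0.05 (limma).

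Among 23 genes of high-energy phosphate transfer, carbonic anhydrases and the energy sensor AMPK, 6 rose and 3 fell. Ak1, the adenylate kinase of fast muscle, had levels of 4.09 and 4.36 on the WT arrays and 8.41 on the exercised array (difference 4.18 ± 0.15); it lay at 6.70 on the sedentary array, lower than on the exercised one by 1.71 (adjusted p = 0.013, limma). Prkag3, the AMPK gamma subunit of glycolytic fibres, had levels of -0.83 and -0.74 on the WT arrays and 3.09 on the exercised array (difference 3.87 ± 0.078), and 3.67 on its second probe. The remaining AMPK subunits that moved were Prkag2 (1.80) and the catalytic Prkaa2 (1.39), which rose, and the catalytic Prkaa1 (-1.21), which fell. AMP deaminase changed by isoform, with Ampd1 of muscle higher (1.67) and Ampd3 lower (-2.48). Car3, the carbonic anhydrase of slow fibres and fat, fell from 6.74 and 6.72 to 3.50 (difference -3.23 ± 0.064), and Car14 rose by 1.50.

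Lipid synthesis and storage genes fell in 7 of 19 cases and rose in 1 (median -0.79). Agpat2, an enzyme of triglyceride assembly, had levels of 0.12 and 0.067 on the WT arrays and -3.14 on the exercised array (difference -3.23 ± 0.067), and Cidea, a lipid droplet protein of fat, went from 2.76 and 2.76 to -0.27 (difference -3.02 ± 0.062). Gpam and Dgat2 of the same pathway fell by 2.83 and 2.39. For Dgat2 the exercised and sedentary arrays did not differ past the threshold (0.20, adjusted p = 0.20, limma). The phosphatase and coactivator Lpin1 was the member that rose (1.46). Adipocyte markers were lower at the same time: 5 of 7 measured markers fell, including Adipoq, adiponectin (-2.97), and Cfd, adipsin (-2.76). Their levels summed to 23.1 on the exercised array, against 140 and 143 for WT and 140 on the sedentary array; most of the WT sum was Car3, which muscle also expresses. The fat cell marker Fabp4 lay at -0.15, and Lep, Cidec, Adrb3, Cebpa, Ucp1 and Pck1 were well above background on fewer than 2 arrays. The part of fat cells in the lipid results was not tested.

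Clock genes changed in both directions, with 4 of 17 risen and 6 fallen. In the daily clock, BMAL1 with CLOCK or NPAS2 activates the period, cryptochrome and PAR-bZIP genes through E-boxes, and the ROR and REV-ERB receptors act on Bmal1 through ROR elements. Bmal1 had levels of -2.04 and -2.39 on the WT arrays and 1.94 on the exercised array (difference 4.15 ± 0.19, adjusted p = 0.0049, limma), and its second probe gave 4.14. The second Bmal1 probe was not well above background on either WT array, so its size of difference is uncertain. Nfil3, a repressor of D-box genes, had levels of -1.64 and -1.42 on the WT arrays and 2.34 on the exercised array (difference 3.87 ± 0.13). Dbp, an activator at D-boxes, went from 6.07 and 6.17 to 2.73 (difference -3.39 ± 0.081), with -3.40 and -3.19 on its other probes. Bmal1 and Nfil3 thus lay above WT and Dbp below. Npas2 rose by 1.81 and Per3 by 2.24. Wee1, a cell cycle kinase under clock control, fell by 2.27, Per2 by 1.60, Tef, a relative of Dbp, by 1.25, and Cry2 by 1.21, and Ciart, a repressor in the loop, was at least 1.76-fold lower. Not called were Clock (0.95), Cry1 (0.96) and the receptors Nr1d1 (0.61) and Nr1d2 (-0.76). The hour at which muscle was taken is not in the labels, and its part in these values was not tested.

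Promoter sequence is shown for 3 called clock genes whose bases before the start hold a ROR element or an E-box (RefSeq, GRCr8, 5′ to 3′ on the strand of the gene, ending at the last base before the start), because their letters match motifs through which the loop is known to act. Capitals mark the ROR element (AANTN followed by GGTCA) in Bmal1 and the E-box CACGTG in Tef and Ciart, searched on both strands and not overlapping. Of 33469 promoters, 0.669% hold the ROR element and 5.59% the E-box within 250 bases before the start.
Bmal1, chr1:176766268-176766327, plus strand: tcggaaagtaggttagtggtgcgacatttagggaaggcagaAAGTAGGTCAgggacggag
Tef, chr7:115206607-115206826, plus strand: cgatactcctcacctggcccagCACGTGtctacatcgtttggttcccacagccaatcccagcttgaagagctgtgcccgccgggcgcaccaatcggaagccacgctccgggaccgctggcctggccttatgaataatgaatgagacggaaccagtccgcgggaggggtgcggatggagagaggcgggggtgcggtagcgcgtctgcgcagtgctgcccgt
Ciart, chr2:186112247-186112366, minus strand: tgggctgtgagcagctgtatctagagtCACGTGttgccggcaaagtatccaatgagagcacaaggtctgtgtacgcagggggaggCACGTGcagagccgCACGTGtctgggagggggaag
In Bmal1, which rose, the 1 match to the searched form of the ROR element begins at -19. Other forms of the element were not searched. Ciart, which fell, holds 3 E-boxes, at -93, -35 and -21, and Tef, which fell, 1 at -198. The window of Per2 holds a D-box (TTANGTAA, in 2.04% of promoters) at -192, and those of Npas2, Nfil3, Per3, Cry2 and Dbp hold none of the 3 motifs. Wee1 was not matched.

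The sedentary SPORTS array lay on the same side of WT for several clock genes. Bmal1 was at 0.92 there (exercised minus sedentary 1.01, adjusted p = 0.046, limma) and Dbp at 3.85 (exercised minus sedentary -1.11, adjusted p = 0.011, limma). Per3 lay at -3.61, below its WT values of -2.31 and -2.42 (exercised minus sedentary 3.48, adjusted p = 0.0062, limma).

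**Figure D3:**
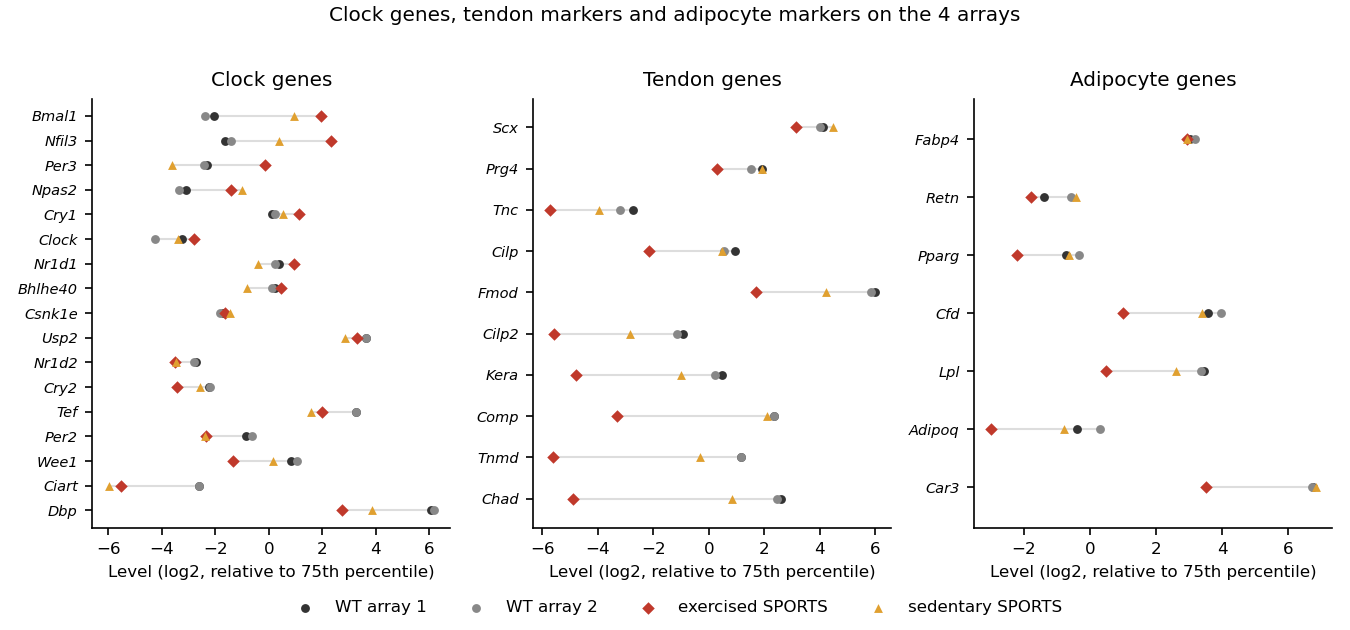
Log2 levels (horizontal axis, relative to the 75th percentile of each array) of clock genes, tendon markers and adipocyte markers on the 4 arrays; grey lines span the lowest and highest value of a gene. Among the clock genes, Bmal1 and Nfil3 stand furthest above their WT points on the exercised array, by 4.15 and 3.87, and Dbp furthest below, at -3.39; all tendon markers lie below WT.

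Immediate early genes, which answer nerve activity, stretch and stress within minutes, were mixed: 6 of 23 rose and 3 fell. Atf3, a stress-induced transcription factor, had levels of 0.97 and 1.29 on the WT arrays and 3.39 on the exercised array (difference 2.26 ± 0.18). Egr1 rose by 1.94, the nuclear receptor Nr4a1 by 1.78 and Csrnp1 by 1.97, and Nr4a3, not well above background on the WT arrays, was at least 2.71-fold higher. Ier3, Arc and Klf2 fell, by 2.19, 1.97 and 1.27. The classical markers Fos and Jun were not called: Fos had levels of -1.34 and -0.50 on the WT arrays and 0.21 on the exercised array and Jun differed by -0.076. In this list the median difference between the WT arrays was itself -0.20.

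Of 25 genes that respond to glucocorticoids or fasting, 6 rose and 2 fell (median 0.55). Glul, glutamine synthetase, had levels of 1.11 and 1.05 on the WT arrays and 3.92 on the exercised array (difference 2.84 ± 0.068). Fkbp5, a chaperone of the glucocorticoid receptor, had levels of 0.72 and 0.82 on the WT arrays and 2.95 on the exercised array (difference 2.18 ± 0.081). On the sedentary array Fkbp5 lay at 0.70, and the SPORTS arrays differed by 2.25 (adjusted p = 0.0064, limma). Cebpd rose by 2.01 and the ubiquitin ligase Trim63 (MuRF1) by 1.42. Lcn2, a secreted protein not well above background on the WT arrays, was at least 2.70-fold higher. Hsd11b1, which regenerates active glucocorticoid, fell by 1.63 and Ddit4 by 1.54. Tsc22d3 (0.82) and Klf9 (0.20), typical targets of the receptor, were not called.

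Genes of muscle atrophy and autophagy rose in 6 of 27 cases and fell in 1, so 7 were called, against 18.3% of all genes. Risen members were the ligase subunits Fbxo31 (1.65), Traf6 (1.50) and Trim63, the protease Ctsl (1.21), the translation repressor Eif4ebp1 (1.19) and Atg7 (1.12), and Fbxo21 fell (-1.10). Fbxo32 (atrogin-1) had levels of 0.33 and 0.43 on the WT arrays and 1.42 on the exercised array and did not pass, at 1.04. Of 30 chaperone and unfolded protein genes, Chac1 (1.86) and Atf4 (1.05) rose and the small heat shock proteins Hspb7 (-1.31) and Hspb6 (-1.14) and Ddit3 (-1.09) fell, a count close to the background share. Among 30 genes of amino acid and polyamine metabolism, Glul, the amino acid transporter Slc38a4 (1.997) and the branched-chain aminotransferase Bcat2 (1.05) rose, and Arg1 was at least 1.18-fold lower; these 4 of 30 are a share below the 18.3% of all genes called.

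Of 25 genes of the hypoxia response and vessel growth, 5 fell and 1 rose, so 6 were called, against 18.3% of all genes. Beside Vegfb and Pdk1, Esm1, a secreted product of endothelial tip cells, had levels of 2.27 and 2.46 on the WT arrays and -1.66 on the exercised array (difference -4.03 ± 0.12), and the vessel peptides Apln, apelin, and Angpt1, angiopoietin, fell by 2.37 and 2.27. P4ha1, a collagen prolyl hydroxylase, rose by 1.22. Vegfa, the main exercise-induced vessel growth factor, lay at -0.073, with levels of 2.90 and 3.14 on the WT arrays and 2.95 on the exercised array. Endothelial markers as a list were near WT, with 1 of 14 risen (Cldn5, 1.52) and 2 fallen (Cd300lg, and Cdh5 at -2.09) and summed levels of 42.3 and 45.2 on the WT arrays and 48.4 on the exercised array.

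In insulin signalling 3 of 25 genes rose and 2 fell, a share close to the 18.3% of all genes called. Irs1, the insulin receptor substrate, was not well above background on the WT arrays and at least 3.81-fold higher on the exercised array, and Tbc1d1, a brake on glucose transporter movement, and the adiponectin receptor Adipor1 rose by 1.33 and 1.23. Gcgr, the glucagon receptor, was at least 4.24-fold lower and Igfbp5 at least 2.60-fold lower. Slc2a4, the insulin-responsive glucose transporter GLUT4, lay at 0.29 with levels of 5.06 and 5.07 on the WT arrays and 5.35 on the exercised array.

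Among 17 genes of monoamine metabolism and adrenergic signalling, 5 rose and 1 fell. Ddc, the decarboxylase of monoamine synthesis, had levels of -1.91 and -1.94 on the WT arrays and 0.63 on the exercised array (difference 2.55 ± 0.063). The degrading enzyme Maob rose by 1.88, and the SPORTS arrays did not differ past the threshold for it (adjusted p = 0.18, limma). Maoa, monoamine oxidase A, had levels of -0.54 and -0.54 on the WT arrays and 0.23 on the exercised array, a difference of 0.77 ± 0.062 that was under 2-fold (adjusted p = 0.0086, limma). The phosphodiesterase Pde4d (1.63) and the receptor Adra2b (1.09) rose.

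Interferon-induced genes rose in 6 of 29 cases and fell in 1, so 7 of 29 were called, against 18.3% of all genes. Irf7, the interferon regulatory factor of the antiviral state, had levels of -0.13 and -0.11 on the WT arrays and 2.002 on the exercised array (difference 2.13 ± 0.063), and Isg15, a ubiquitin-like protein, went from -1.52 and -1.37 to 0.36 (difference 1.81 ± 0.10). Mx1 rose by 1.63, Rsad2 by 1.47 and Bst2 by 1.16. Irgm, a GTPase of this response, was not well above background on the WT arrays and at least 4.46-fold higher. The exercised array lay lower than the sedentary array for Irf7 (-0.70, adjusted p = 0.014) and Isg15 (-0.67, adjusted p = 0.031), and Mx1 did not differ past the threshold between them (-0.88, adjusted p = 0.054, all limma). Of 15 genes of antigen presentation 0 rose and 1 fell, RT1-Db1 of class II (-1.42). In this list 6 genes lay above the WT mean and 9 below, with a median of -0.14. RT1 genes are a multigene family whose probes may not separate its members.

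Antioxidant and glutathione genes split within families, with 4 of 39 risen and 7 fallen, so 11 were called, against 18.3% of all genes. Among glutathione transferases, Gstm2 had levels of -0.51 and -0.50 on the WT arrays and 2.75 on the exercised array (difference 3.25 ± 0.062), whereas Gsta3 went from 3.22 and 3.25 to -0.18 (difference -3.41 ± 0.064) and Gsta4 fell by 2.94. Selenow, a selenoprotein abundant in muscle, rose by 2.34, Txnip, the thioredoxin inhibitor, by 1.67 and Msrb1 by 1.27. Catalase Cat and the peroxidase Gpx1 fell by 1.27 and 1.51. The superoxide dismutases Sod1 and Sod2 lay at 0.059 and -0.94 and were not called.

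Of 18 measured genes for factors secreted by muscle, 3 rose and 7 fell (median -0.60, and 0.16 with no filter on dim probes, which adds genes well above background on fewer than 2 arrays). Il15, interleukin 15, had levels of -1.94 and -1.70 on the WT arrays and 1.54 on the exercised array (difference 3.36 ± 0.14), Ccl2, a monocyte attractant, rose by 2.35 and Fgf2 by 1.43. Ccn2, connective tissue growth factor, fell from 2.10 and 1.97 to -0.86, and Fstl1, Metrnl, Dcn, Inhba and Sparc fell by 1.61, 1.59, 1.43, 1.26 and 1.23. Several of the fallen members are products of fibroblasts.

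Membrane transport genes rose in 4 and fell in 4 of 21 cases, so 8 were called, against 18.3% of all genes. Atp1b2 had levels of 1.07 and 1.01 on the WT arrays and 6.64 on the exercised array, while Atp1b1, the subunit it can replace in the sodium pump, fell by 1.09. Kcnj12, an inward rectifier, rose by 2.66, Clcn1, the chloride channel that steadies the muscle membrane, by 1.50 and Kcnj11 by 1.07. Aqp7, the glycerol channel of fat and muscle, fell from 2.17 and 1.99 to -2.34 (difference -4.41 ± 0.11), Kcna5 fell by 1.31, and Kcnk13 was at least 1.49-fold lower.

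At the neuromuscular junction 8 of 18 genes fell and 1 rose (median -0.75), against 10.5% of all genes that fell. Chrnd, the delta subunit of the acetylcholine receptor, had levels of 1.74 and 1.68 on the WT arrays and -2.04 on the exercised array (difference -3.75 ± 0.070), and Chrna1 fell by 1.68, whereas the adult subunit Chrne lay at 0.28 and Chrnb1 at 0.34. Colq, the collagen tail that anchors acetylcholinesterase at the synapse, was at least 5.84-fold lower. Ache, the esterase itself, had levels of -1.34 and -1.59 on the WT arrays and 1.27 on the exercised array (difference 2.73 ± 0.15). Dok7, the activator of the receptor kinase MuSK, fell by 2.15, nestin, Nes, by 1.98 and Etv5 by 1.36. With Chrng, 3 receptor subunit genes thus fell while the esterase gene rose.

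Of 19 genes of myogenesis and satellite cells, Cdh15 (1.65) and Hes1 (at least 3.03-fold higher, not well above background on the WT arrays) rose, and 5 fell, namely Myog, Vim (-1.31), Itga7 (-1.15), Id2 (-1.12) and Heyl (at least 1.09-fold lower, not well above background on the exercised array). Genes that mark body and limb position, which differ between muscles and are set in development, were also examined, since the muscle is not named. Of 12 measured, Hoxd9 rose (1.45) and 4 fell, among them Tbx3 (-1.25), Pitx3 (-1.17) and Msx1 (-1.17). The hindlimb gene Pitx1 had levels of -0.26 and -0.074 on the WT arrays and -0.995 on the exercised array and was not called.

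Most connective tissue genes measured fell. Of 27 collagen and matrix genes 18 fell and 25 lay below the WT mean, with a median of -1.51, against 10.5% of all genes that fell. Col1a1, the main fibrillar collagen chain, had levels of 6.02 and 6.03 on the WT arrays and 3.05 on the exercised array (difference -2.98 ± 0.062, and -3.04 on its second probe). Lum, lumican, went from 0.36 and 0.070 to -2.80 (difference -3.01 ± 0.16) and Fn1, fibronectin, from 3.98 and 3.86 to 1.17 (difference -2.75 ± 0.087). Basement membrane collagen Col4a1 (-0.050), elastin Eln (-0.11) and Timp2 (-0.12) were not called.

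Markers of several other cell types moved with this group. Tendon markers fell in 9 of 10 cases (median -4.38, and -3.36 with dim values set to the detection floor), and 6 of them were not well above background on the exercised array. Their levels, summed, came to 13.7 on the exercised array, against 102 and 93.6 for WT and 53.6 on the sedentary array. Most of the WT sum was Fmod, fibromodulin. Fmod went from 5.99 and 5.87 to 1.72 (difference -4.21 ± 0.088), Kera was at least 13.9-fold lower, and the tendon transcription factor Scx lay at -0.95. Fibroblast markers fell in 9 of 10 cases, with summed levels of 124 on the exercised array, 387 and 379 for WT and 313 on the sedentary array. Macrophage and monocyte markers fell in 8 of 15 cases, including Cd68 (-1.66) and Ctss (-1.91). Here the WT arrays differed too, with summed levels of 71.9 and 49.9, against 25.9 on the exercised and 113 on the sedentary array. The part of connective tissue cells in the matrix results was not tested.

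Nerve and Schwann cell markers fell in 6 of 11 cases and rose in 1 (Mag, 1.46), although the myelin gene Mbp lay at -0.040. Their median of -1.11 became -0.28 with dim values set to the detection floor, as 3 were not well above background on the exercised array. Mast cell markers fell in 4 of 5 cases, and smooth muscle and pericyte markers in 1 of 11 (Cspg4, -1.27). Of the mast cell markers, Hdc, Tpsb2 and Cpa3 were not well above background on the exercised array. Their lower bounds were 1.94-fold, 1.85-fold and 1.66-fold, and the mast cell median of -1.80 became -0.89 with dim values set to the detection floor. Of 4 heart-list genes 3 fell, namely Tnni3 (at least 4.30-fold lower), Myl4 and Myh6; Nppa and Nppb, which define heart muscle, were not tested, being well above background on fewer than 2 arrays. Blood cell lists were thinly measured. Of 6 lymphocyte genes 1 rose, Ltb, and 2 fell, Ptprc (at least 2.38-fold lower) and Cd4, for which the bound is under 1 and no fold is given. Of 4 neutrophil genes 2 rose, Lcn2 and S100a9 (at least 2.61-fold higher), and 2 fell, Cxcr2 (at least 2.70-fold lower) and Fpr1 (at least 1.58-fold lower). Of 6 red cell genes Hba-a3 was at least 3.77-fold higher, and the near-identical Hba-a1 lay at -0.60, so probes of the alpha globins disagree. Of the liver and gut list only transferrin, Tf, was measured, and it fell by 1.81.

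**Figure D4:**
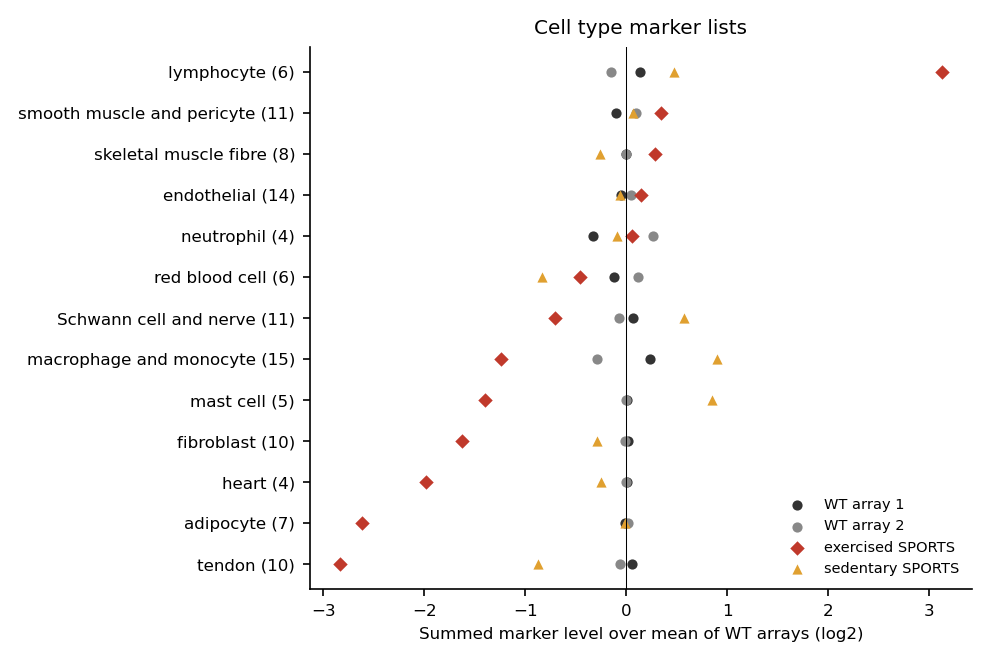
Summed linear level of each cell type marker list with at least 4 measured genes (number in brackets), shown as log2 of its ratio to the mean of the WT arrays (horizontal axis), for the 4 arrays. The exercised array (red diamonds) is furthest below WT for tendon and adipocyte markers, and the lymphocyte sum is high through Ltb, which rose by 5.46.

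**Figure D5:**
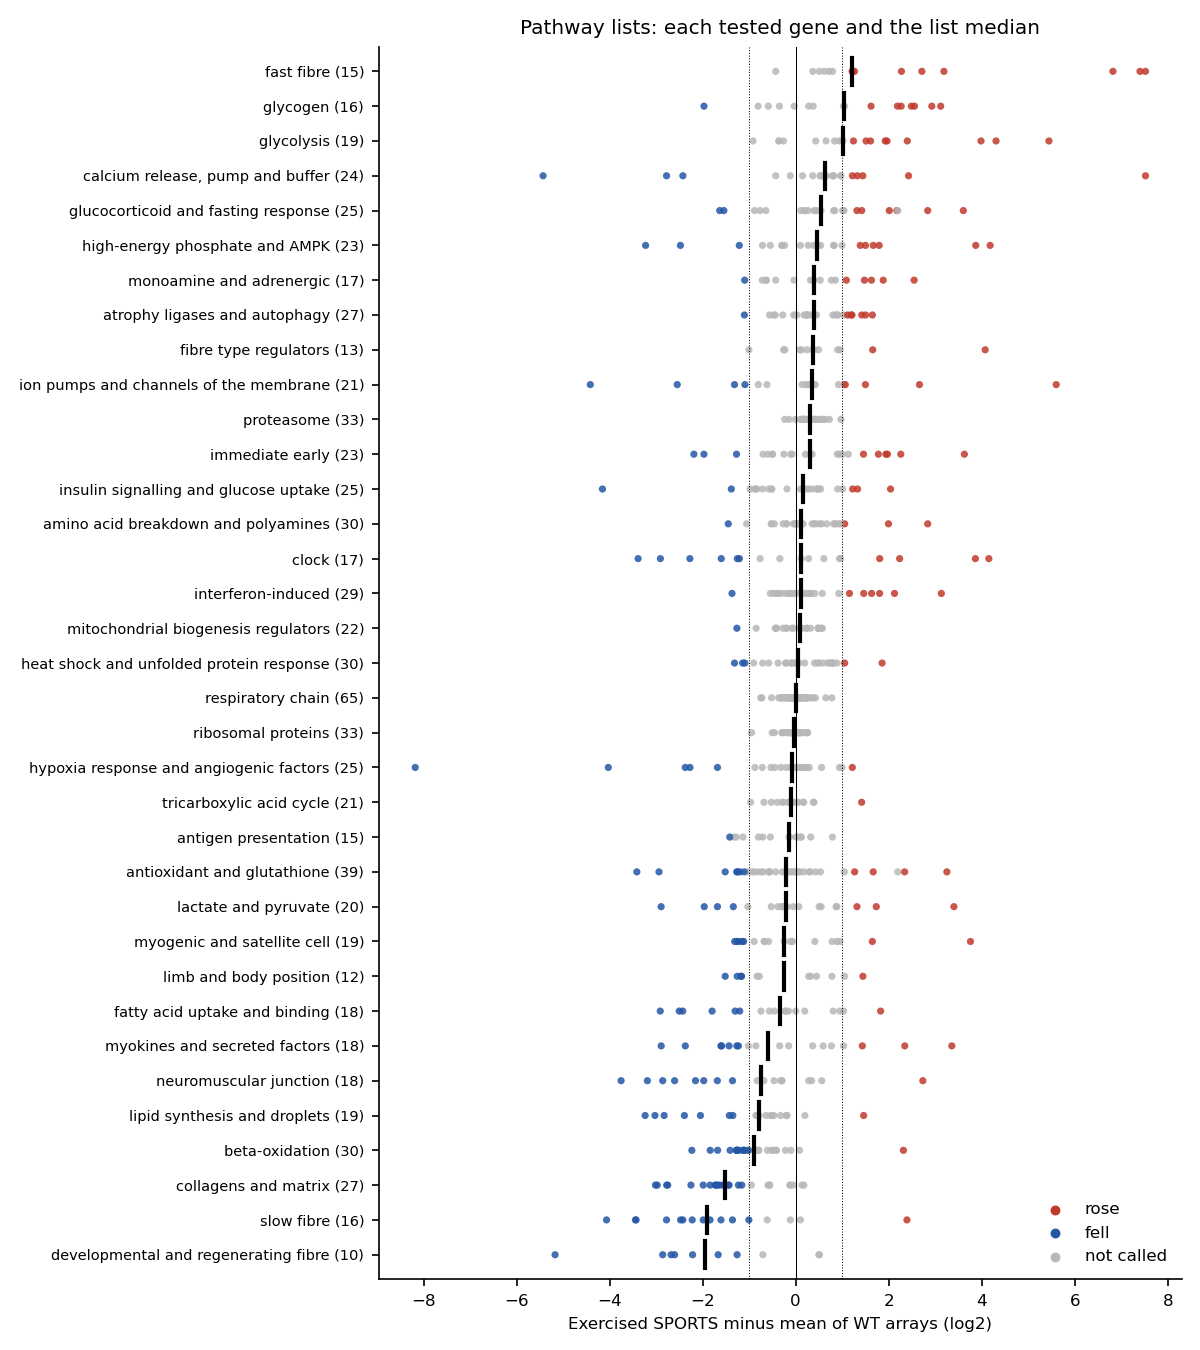
Each point is a tested gene of a pathway list, placed by its log2 difference between the exercised SPORTS array and the WT mean (horizontal axis; dotted lines mark 2-fold); black bars are list medians, and the number in brackets is the count of genes tested. Medians run from -1.94 for developmental fibre genes to 1.22 for fast fibre genes, and genes of the respiratory chain, ribosome and proteasome all lie within 2-fold of the WT mean.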

How the data were processed

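RNA of 4 muscle samples was labelled with Cy3 and hybridised, 1 sample an array, per the labels' protocols; per the file headers all arrays were on 1 slide. The deposited scanner files hold linear intensity per spot, background-subtracted by Agilent Feature Extraction 10.7.1.1, per the file headers. The deposited value table holds log2 values whose differences between arrays matched the scaled scanner values (Pearson's r = 1.0000 over 30015 probes), with row medians of 0; it served as an alternative. Further steps of the authors are not given in the sources used here.

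Spots of a probe were averaged as log2 signal minus the array's 75th percentile, without control spots and 352 probes with outlier flags; no probe was saturated. Accessions were named through RefSeq (GRCr8): 17826 of 30015 probes have 1 symbol and 12189 have none, and the brightest probe stood for a gene. Genes well above background on 2 or more arrays were tested (13326, of which 8472 have a symbol). limma 3.58.1 in R 4.3.3 fitted 3 groups, with 1.8 prior degrees of freedom; the number of arrays limits the precision. Over 1075 probes with 3 or more spots the WT arrays differed with an SD of 0.13, against a median SE of 0.024 from spots.

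For a group not well above background, the fold is a lower bound against the probe's own signal or, where higher, the lowest signal that the array's flag passed. Named genes were the 12 furthest above and below WT, up to 4 called members of each list (5 where that completes a count), a fixed set and those nearest the 2-fold limit, 160 in all; other list members were quoted outside this rule. Some members are counted in their lists but not reported by name here. The adjusted p of the 158 called ones lay between 0.0042 and 0.049 (limma). The comparison and the lists were chosen with earlier results of these data known. The fit was tested on simulated data. Alternatives were other scaling, background correction, dim-probe filters, probe choice, variance model and arrays left out.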

Additional observations from a re-analysis of the deposited data

How the results depend on the processing

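Of 160 named genes, 1800 comparisons with an alternative setting kept direction and, where a test was run, side of the threshold. Another 62 lost the call and 1 reversed: Cd4 went to 0.015 with dim values at the detection floor. With a WT array left out no test was run, and those comparisons counted as kept whenever the direction held. The authors' value table holds the same differences between arrays, so it was unlikely to change a call. Losses came with normexp correction (19), dim values at the floor (15), no filter on dim probes (12), median scaling (8), quantile normalization (4) and the mean of all probes (4). A gene not tested under a setting was not compared there. Where all 4 arrays had to be well above background, named genes dim on an array were thus neither kept nor lost. The 1402 genes that fell became 834 with normexp and 796 when genes had to be well above background on all 4 arrays, which tests fewer genes. The count at least 2-fold below WT, 1431, became 834 and 796 under the same settings, and the 1050 at least 2-fold above became 1711 with no filter, which tests 26624 genes. Leaving out 1 WT array gave 2747 to 2794 genes at least 2-fold from WT, 1162 to 1186 of them higher and 1585 to 1608 lower; the test then has no residual degrees of freedom and was not run.

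List medians reversed in 6 cases: myokines 0.16, heart 0.20 and liver and gut 0.19 with no filter, skeletal muscle fibre -0.047 with quantile normalization, and lymphocyte 2.65 with all 4 arrays well above background and 0.009 at the floor. Of the others, 353 moved by less than the spread of the WT pair and 179 by more. Leaving out a WT array shifts a gene by only part of the distance between its WT values. Those settings, and the authors' value table, were therefore unlikely to move a list median by more than that spread. Other medians changed sign with median scaling (tricarboxylic acid cycle 0.12, hypoxia 0.15, antigen presentation 0.081, antioxidant 0.023, lactate and pyruvate 0.011, ribosomal proteins 0.19, neutrophil 0.20), quantile normalization (respiratory chain -0.29, heat shock -0.077, endothelial -0.038, neutrophil 0.18), normexp (neutrophil 0.19, respiratory chain -0.003), the mean of all probes (clock -0.34, smooth muscle and pericyte -0.012), no filter (hypoxia 0.039, limb and body position 0.18, neutrophil 0.20), all 4 arrays well above background (limb and body position 0.28), dim values at the floor (neutrophil 0.36), without WT array 1 (respiratory chain -0.011) and without WT array 2 (hypoxia 0.022, neutrophil 0.027). No paired analysis was possible because the numbers 1 and 2 only name the WT arrays and each SPORTS group has 1 array. Signal near background limits the 613 fallen genes that were not well above it on the exercised array.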
